A study of Mus musculus with 189 samples.

Results

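Sister blastomeres of the same mouse embryo were compared with each other, and with the blastomeres of other embryos, when the embryo had 4 or 8 cells. All samples labelled as a single blastomere of a 4-cell or an 8-cell embryo were taken, which gave 33 of the 189 samples of the series, 9 from 3 embryos at the 4-cell stage and 24 from 4 embryos at the 8-cell stage. The series as a whole measured 192 genes by microfluidic quantitative PCR from the oocyte to the blastocyst, with ESC RNA (RNA of embryonic stem cells) as a standard. The embryos came from superovulated F1 females of a C57BL/6 and DBA/2 cross mated to C57BL6 males, and were kept in KSOMaa medium at low oxygen without any treatment. The zona was taken off with proteinase and the cells were parted with trypsin, so each sample is 1 cell in 1 reaction tube, amplified for 18 cycles with all primers before the chip. The age of the mice is not given in the sources used here, and litter and sex of an embryo are not in the labels.

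The numbers of the embryos are those of the labels. Of the 4-cell embryos, 2 blastomeres of embryo 4, 3 of embryo 5 and all 4 of embryo 6 were measured. At the 8-cell stage embryos 4 and 5 were measured with all 8 blastomeres, embryo 6 with 5 and embryo 7 with 3. The embryo is the replicate of a stage and sisters are not, since they share 1 embryo and the handling of it.

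The first cell divisions of the mouse embryo give blastomeres that look alike, and the first visible decision, between the inner cell mass (ICM) and the trophectoderm, is made later. Carm1, an arginine methyltransferase of histone H3, and Prdm14, a PR domain protein that helps to hold pluripotency, are known for unequal amounts among sisters at the 4-cell stage. Cdx2 is the transcription factor that sets the trophectoderm fate and is among its earliest markers. Differences among sisters can only be read against the differences between whole embryos and against the error of the assay.

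Values are log2 levels, meaning 30 minus the cycle threshold (Ct) of the gene, minus the mean of the same quantity for the control genes Hnrnpr, Ssu72 and Ube2e1, so that a step of 1 is a doubling of transcript. A Ct of exactly 30 means not detected, which has no level. The threshold of expression that the paper set on its normalized scale was not applied here. Some of the lowest levels of Prdm14, Cdx2, Ring1, Suv39h1, Xist and Scml2 given in what follows lie below the value of that threshold. The deposited normalized table is scaled to other genes than Hnrnpr, Ssu72 and Ube2e1, which shifts levels by up to 2.52 in these blastomeres. The threshold may therefore not carry over to the levels given here. Of the 192 assays 156 passed the authors' quality control. Of these, 104 were detected in each of the 33 blastomeres, 49 in some of them, and 3 (Elf5, Krt19 and Rbp2) in none. The control genes came up at a mean Ct of 13.9 to 16.2 in the 4-cell blastomeres (SD 0.798, n = 9) and of 13.6 to 16.1 in the 8-cell blastomeres (SD 0.750, n = 24), and 16 to 27 of the 156 genes went undetected per blastomere, with a median of 21. In 8 blastomeres, 3 of the 4-cell and 5 of the 8-cell stage, the control genes came up before cycle 15, and 3 of these 8 belong to 8-cell embryo 4. In that embryo the control genes also stood highest against the rest of the genes. Their Ct minus the mean Ct of the 101 other genes detected everywhere had a median of −1.02 in embryo 4, against −0.593 in 8-cell embryo 5, −0.479 in embryo 6 and −0.722 in embryo 7.

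The inner cell mass markers Pou5f1, Klf2, Klf4, Esrrb and Pecam1 were detected in all 33 blastomeres, and the trophectoderm marker Tead4 as well. Nanog and Gata3 were detected in each of the 24 8-cell blastomeres but not in all 4-cell ones. Gata3, a trophectoderm transcription factor, was detected in 1 of 9 4-cell blastomeres. The germline gene Dazl, whose transcript is stored in the oocyte, was detected in 9 of 9 4-cell and in 9 of 24 8-cell blastomeres. The oocyte gene ZP3, which codes for a protein of the zona pellucida, and the testis gene Brdt were detected in all 33 blastomeres as well.

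Between the highest and the lowest sister of an embryo Carm1 differed by a factor of 1.72 to 3.91, and it was not among the most unequal genes. In 4-cell embryo 4 its log2 level was −0.96 and −0.16, in embryo 5 it was −0.78, 0.34 and 0.10, and in embryo 6 it was −1.03, −1.005, 0.16 and −0.13. Each 4-cell embryo thus held at least 1 blastomere near −1 or −0.8 and at least 1 above −0.2, and the ranges of the 3 embryos overlapped. The highest sister had 1.73 times the level of the lowest in embryo 4, 2.17 times in embryo 5 and 2.29 times in embryo 6. At the 8-cell stage Carm1 ran from −1.14 to 0.07 with a median of −0.53 in embryo 4, from −0.82 to 1.15 with a median of 0.05 in embryo 5, from 0.12 to 0.90 in embryo 6 and from −0.79 to 0.16 in embryo 7. Embryo 5 had the widest range, with a factor of 3.91 between its highest and its lowest sister. Embryo 6, with 5 of its blastomeres measured, lay wholly above embryo 4.

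The pooled SD of Carm1 among sisters was 0.595 at the 4-cell stage, the 22nd largest of the 101 genes that were detected everywhere and are not control genes, and 0.503 at the 8-cell stage, the 64th largest. Since genes of higher Ct spread more, genes of like Ct serve as the yardstick. Carm1 had 1.63 times the median SD of the 20 genes nearest to it in Ct at the 4-cell stage and 0.884 times at the 8-cell stage. Its spread at the 8-cell stage against the 4-cell stage gave a log2 ratio of −0.56 ± 0.49 (standard error, limma on the log2 SD of 7 embryos), adjusted p = 0.798. In ESC RNA measured 3 times at 200 pg its SD was 0.151, and in 4 amounts from 25 to 200 pg it was 0.301. Carm1 came up at a mean Ct of 11.3 in the former and of 15.4 in the blastomeres, so these SDs are not matched to its level there.

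Prdm14 and Cdx2 were detected in only part of the blastomeres. Sisters with and without a signal stood side by side in 6 of 7 embryos for Prdm14 and in 3 of 7 for Cdx2. Prdm14 was detected in 1 of 2, 2 of 3 and 3 of 4 blastomeres of the 3 4-cell embryos, and in 5 of 8, 8 of 8, 4 of 5 and 1 of 3 of the 4 8-cell embryos. The exception was 8-cell embryo 5, where all sisters had it. Cdx2 was detected in 0 of 2, 2 of 3 and 0 of 4 blastomeres of the 4-cell embryos, and in 4 of 8, 5 of 8, 5 of 5 and 3 of 3 of the 8-cell embryos. Where Prdm14 had a level, it lay from −10.49 to −4.59 at the 4-cell stage, with a median of −6.03, and from −7.47 to −2.94 at the 8-cell stage, with a median of −5.76. The detected levels of the 2 stages overlapped between −7.47 and −4.59.

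Cdx2 showed a wide split among the sisters that had a signal. In 8-cell embryo 4 it had levels of −2.68, −2.66, −9.72 and −10.32 and was not detected in the other 4 blastomeres. In embryo 5 it had levels of −5.26, −5.76, −5.73, −5.34 and −9.50 and was not detected in 3. In embryo 6 it had levels of −3.35, −3.51, −5.83, −2.90 and −6.52, and in embryo 7 of −2.66, −3.79 and −3.80. The sisters of 8-cell embryo 4 therefore ranged from the top of the range of this stage to no signal. Fisher's exact test (two-sided) of detection across the 8-cell embryos gave an adjusted p of 0.452 for Prdm14 and of 0.557 for Cdx2. Across the 4-cell embryos the exact test gave an adjusted p of 0.694 for Cdx2 and of 1 for Prdm14. With so few blastomeres per 4-cell embryo, no gene on its own could pass that test after adjustment. The test therefore cannot decide whether detection differed between the 4-cell embryos.

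Cells with Prdm14 and cells with Cdx2 were not separate. Among the 9 4-cell blastomeres 1 had both transcripts, 5 had Prdm14 alone, 1 had Cdx2 alone and 2 had neither. At the 8-cell stage 12 had both, 6 had Prdm14 alone, 5 had Cdx2 alone and 1 had neither. Where they were detected, Prdm14 had a median Ct of 20.6 and Cdx2 of 21.1, late against the median of 15.8 over the genes detected everywhere.

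**Figure D1:**
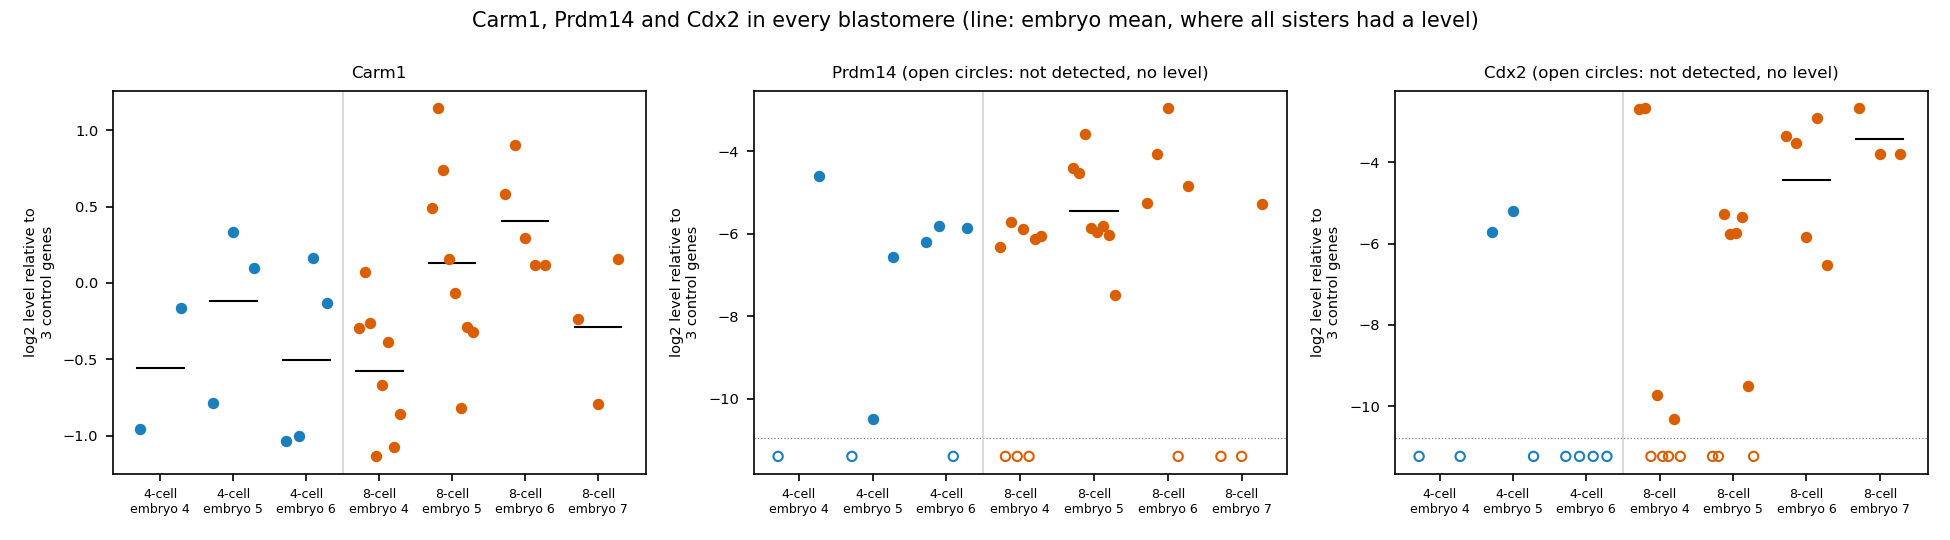
Log2 level relative to the 3 control genes (y axis) of Carm1, Prdm14 and Cdx2 in each of the 9 4-cell (blue) and 24 8-cell (orange) blastomeres, by embryo (x axis); black lines are embryo means where all sisters had a level, and open circles under the dotted line are blastomeres where the gene was not detected. Carm1 was detected in all 33 blastomeres and ranged from −0.82 to 1.15 in 8-cell embryo 5, whereas Prdm14 was detected in 18 and Cdx2 in 17 of 24 8-cell blastomeres.

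Split detection among sisters was common among the genes detected late. Of the 49 genes detected in part, 48 were mixed, with a signal in some sisters and none in others, in at least 1 embryo, and 18 were mixed in 4 or more of the 7 embryos. The 6 genes mixed in 6 or more embryos were Fgf4, a growth factor of the inner cell mass, Prdm14, the histone lysine demethylase Phf2, the methyltransferases Smyd4 and Suv420h2, and Tspan8, a trophectoderm tetraspanin. Per embryo, 9, 22 and 22 genes were mixed at the 4-cell stage and 26, 22, 25 and 19 at the 8-cell stage. The genes detected in part had a median Ct of 19.8 where they were detected, against 15.8 for the 104 genes detected everywhere.

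Of the trophectoderm set of the study, which the authors chose on later blastomeres of the same series, 7 of 8 genes were detected in part. Lats2, a kinase of the Hippo pathway, was detected in 2 of 2, 3 of 3 and 2 of 4 blastomeres at the 4-cell stage and in all 24 at the 8-cell stage. Krt8, an epithelial keratin, was detected in 4 of 9 4-cell and in 22 of 24 8-cell blastomeres, and Id2, an inhibitor of transcription factors of the helix-loop-helix type, in 6 of 9 and 20 of 24. Dppa1 went the other way, with 8 of 9 and 9 of 24, and Tspan8 was detected in 4 of 9 and 13 of 24. Gata3 ranged from −7.53 to −0.71 among the 8-cell blastomeres.

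Of the 12 genes of the inner cell mass set, 3 were detected in part. Sox2, a pluripotency transcription factor, was detected in 7 of 9 4-cell blastomeres (1 of 2, 2 of 3 and 4 of 4) but in 4 of 24 8-cell ones (0 of 8, 2 of 8, 1 of 5 and 1 of 3). Pdgfra, the receptor that later marks the primitive endoderm, was detected in 2 of 9 and 22 of 24. Prdm14 is the third. Counts of the 2 stages stand side by side here and were not tested against each other.

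**Figure D2:**
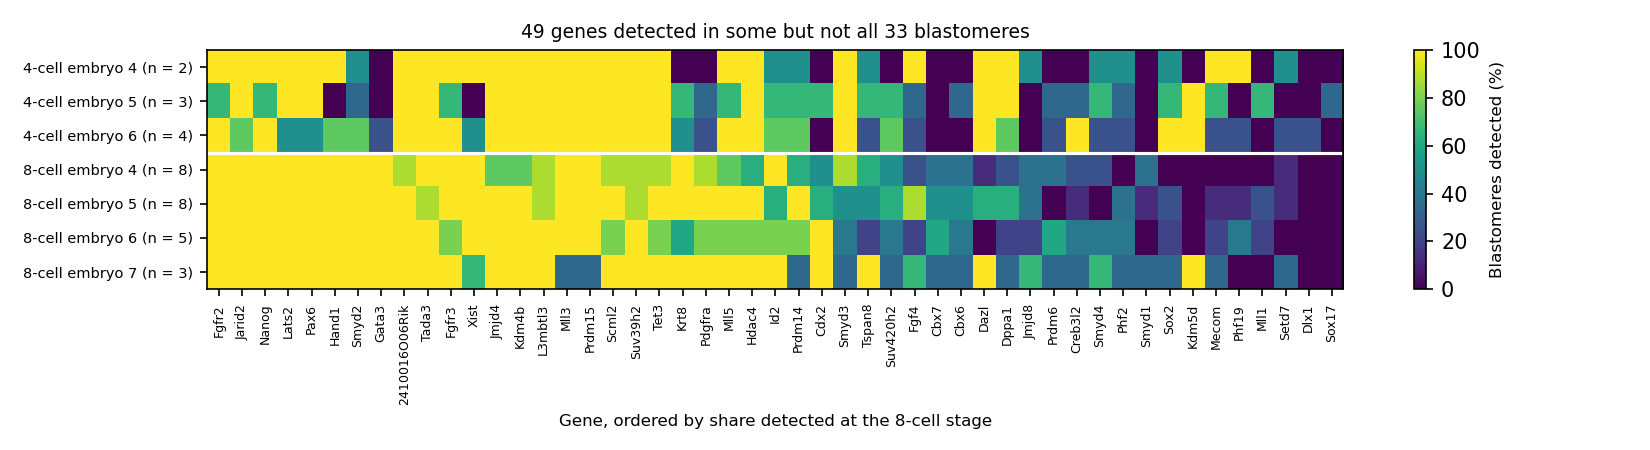
Share of the blastomeres of each embryo (rows, with n) in which a gene was detected, in percent (colour), for the 49 genes detected in some but not all of the 33 blastomeres (columns, ordered by their share at the 8-cell stage). Most genes have intermediate colours in several embryos; Kdm5d is at 100% in 3 embryos and at 0% in 4.

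Detection differed between embryos beyond the split among sisters for 1 gene. Kdm5d, a histone H3 lysine demethylase gene of the Y chromosome, was detected in all 3 blastomeres of 8-cell embryo 7 and in none of the 21 others (Fisher's exact test, two-sided, adjusted p = 0.0193 over 39 genes), which makes 2.56% of the genes tested at the 8-cell stage. At the 4-cell stage it was detected in all 3 blastomeres of embryo 5 and all 4 of embryo 6 and in neither of embryo 4 (adjusted p = 0.694, 0 of 34 genes called, 0%, and 2 at an unadjusted p under 0.05). Kdm5d thus separated the 4-cell embryos fully and still was not called, with an unadjusted p of 0.0278 (Fisher's exact test). No gene on its own could pass there after adjustment, so the count of 0 cannot decide whether detection differed. Kdm5d was the single gene of the 49 that was mixed in no embryo. Its levels were −3.58, −1.59 and −4.08 in 4-cell embryo 5, −3.19, −2.43, −2.30 and −2.18 in 4-cell embryo 6, and −3.29, −0.90 and −0.84 in 8-cell embryo 7. The call at the 8-cell stage was lost when embryo 4 or 5 was left out, or the blastomeres with early control genes (0 genes each). Without embryo 7 no 8-cell blastomere had Kdm5d, so the gene could not be tested. The next genes were Dazl, with 1 of 8, 5 of 8, 0 of 5 and 3 of 3 blastomeres (adjusted p = 0.106, Fisher's exact test), and the H3K4 methyltransferase Mll3 and the PR domain gene Prdm15, each undetected in 2 of 3 blastomeres of embryo 7 and detected in all the others of that stage (adjusted p = 0.106 for each, Fisher's exact test).

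Xist, the noncoding RNA of X inactivation, mirrored Kdm5d. In 4-cell embryo 4, without Kdm5d, it had levels of 2.00 and 1.62. It was not detected in 4-cell embryo 5, and in embryo 6 it was detected in 2 of 4 blastomeres at −11.33 and −5.23. In 8-cell embryos 4, 5 and 6 it was detected in all 21 blastomeres, with 20 of them between 1.61 and 4.04 and 1 of embryo 6 at −0.84, while in embryo 7 it was at −3.33 and −5.51 and not detected in 1. The levels of the embryos with and without Kdm5d did not overlap. Detection of Kdm5d, though not its level, was thus alike among the sisters of each embryo, whereas that of Prdm14 was mixed.

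Of the 5 X-linked genes detected everywhere (Kdm5c, Kdm6a, Atrx, Phf8 and Suv39h1) 3 differed between 8-cell embryos in the test given in the next paragraphs, which called 44.2% of all genes tested. Kdm5c, the X-linked relative of Kdm5d, had means of 1.51, 1.68 and 1.73 in embryos 4, 5 and 6 and of 0.57 in embryo 7 (limma, adjusted p = 0.00994), and the 3 blastomeres of embryo 7, at 0.51, 0.45 and 0.75, lay below all 21 others. Kdm6a, an H3K27 demethylase gene, had means of −1.15, −0.76, 0.22 and −2.27 (limma, adjusted p = 1.67e-04), and Atrx, a chromatin remodeller gene, of 1.01, 2.29, 2.31 and 0.76 (limma, adjusted p = 1.13e-04). The means of Phf8, a histone demethylase gene, were −2.64, −2.38, −1.74 and −2.30 (limma, adjusted p = 0.179), and those of Suv39h1, an H3K9 methyltransferase gene, −5.76, −5.73, −4.35 and −5.94 (limma, adjusted p = 0.328). In the 4-cell embryos Kdm6a was at 0.18 and 0.26 in embryo 4 and from −1.54 to −0.03 in embryos 5 and 6 (limma, adjusted p = 0.157). Scml2, a Polycomb gene of the X chromosome with transcript in the oocyte, was detected in all 9 4-cell blastomeres at −4.12 to −2.17 and in 22 of 24 8-cell blastomeres at −12.84 to −4.43.

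**Figure D3:**
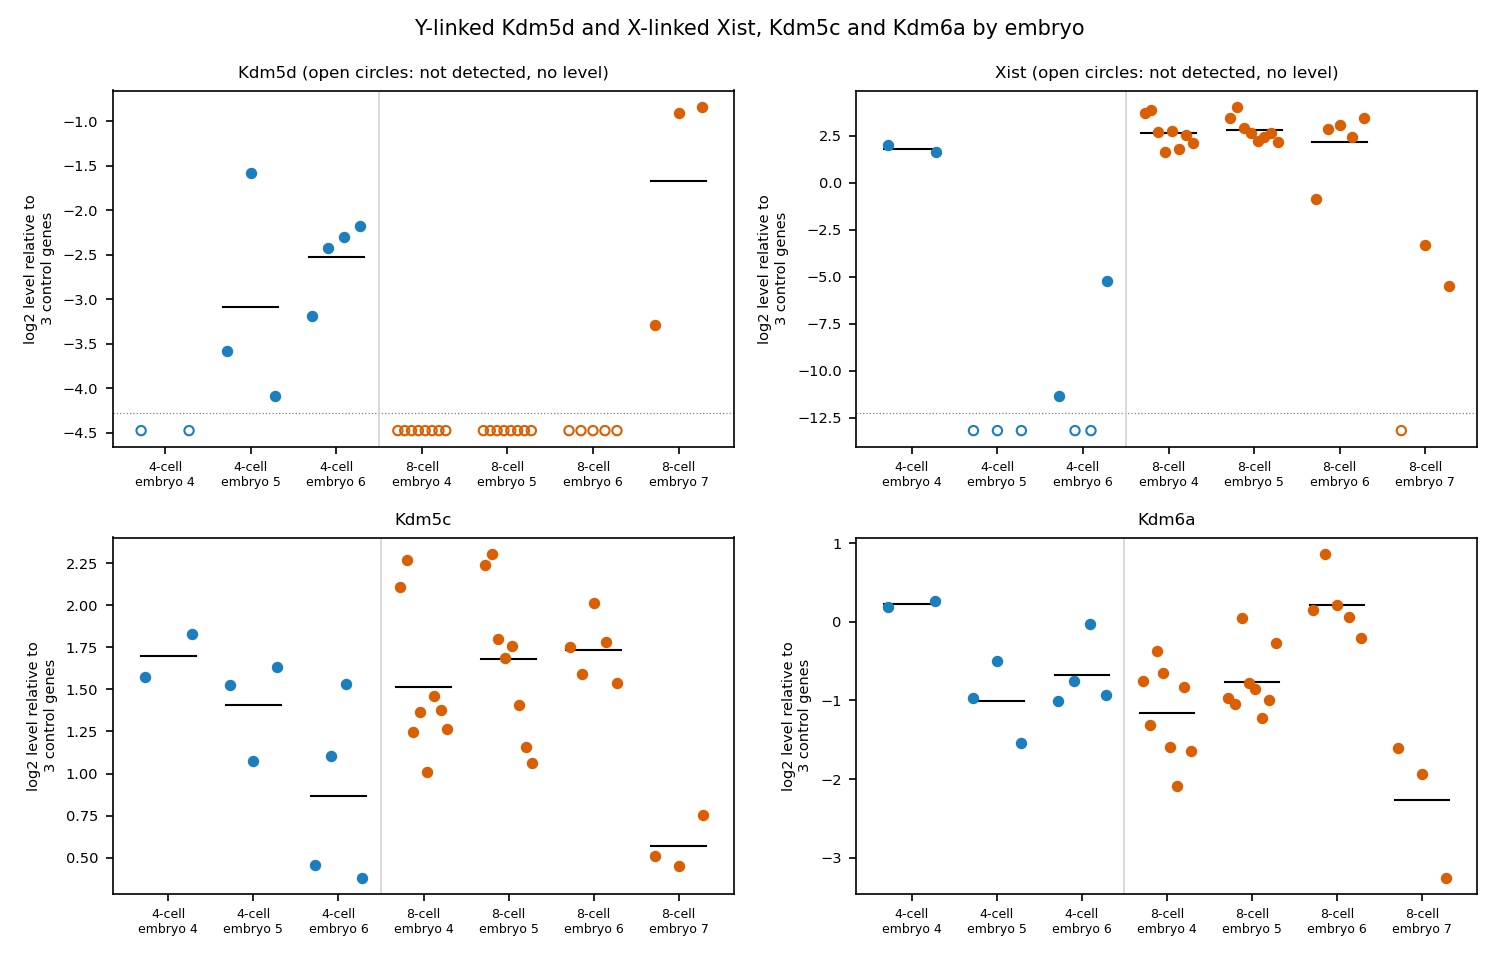
Log2 level relative to the 3 control genes (y axes) of Y-linked Kdm5d and X-linked Xist, Kdm5c and Kdm6a in each 4-cell (blue) and 8-cell (orange) blastomere, by embryo (x axes); black lines are embryo means, and open circles are blastomeres without detection. The embryos in which Kdm5d was detected, 4-cell embryos 5 and 6 and 8-cell embryo 7, have Xist at −3.33 or lower or not detected.

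More of the variance of a gene lay among sisters than between embryos in most genes. Over the genes detected everywhere the median share of the variance within embryos was 79.2% in 4-cell and 72.6% in 8-cell embryos, though the first was 47.5% in the deposited normalized table. The share within embryos also holds the error of the assay. Where the estimated variance between embryos was negative it was set to 0, which makes the share 100%, as for ASF1A at the 4-cell stage. In a moderated F test of the embryo means (limma, Benjamini-Hochberg over 104 genes) embryos differed for 1 gene at the 4-cell stage, which is 0.962%, and for 46 genes at the 8-cell stage, which is 44.2%. At an unadjusted p under 0.05 there were 23 and 52 genes. The 4-cell test rests on 9 blastomeres and the 8-cell test on 24, and the difference between the counts was not tested.

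The gene of the 4-cell stage was Yap1, the transcriptional coactivator held back by the Hippo pathway. Its levels were −2.57 and −2.18 in embryo 4, −1.88, −2.04 and −2.05 in embryo 5 and −0.93, −0.99, −1.02 and −1.31 in embryo 6. The 3 embryos did not overlap, and the widest range among sisters was 0.39, in embryo 4 (SD among sisters 0.174, limma, adjusted p = 0.0385). Yap1 differed at the 8-cell stage as well, from a mean of −4.86 in embryo 4 to −3.33 in embryo 7 (limma, adjusted p = 0.00813). The 4-cell call was lost in 9 of 12 alternatives, among them each omission of an embryo (adjusted p from 0.101 to 0.392, limma, and from 0.0285 to 0.981 over all alternatives). The next genes at that stage were the pluripotency factor Klf2, the H3.3 chaperone Hira, the H3K4 methyltransferase Setd1b, the Polycomb ubiquitin ligase Ring1 (adjusted p = 0.130 for each, limma) and the H3.3 histone gene H3f3b (adjusted p = 0.131, limma).

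At the 8-cell stage the smallest p belonged to Pcgf1, a subunit of Polycomb repressive complex 1. Its level ran from −0.72 to 0.46 in embryo 4, from 1.04 to 1.73 in embryo 5, from 0.52 to 1.70 in embryo 6 and from −0.63 to 0.03 in embryo 7 (limma, adjusted p = 4.94e-05). Embryos 5 and 6 did not overlap with embryos 4 and 7. Earlier, in the 4-cell embryos, the gene stood between 1.55 and 2.58 with overlapping embryos (limma, adjusted p = 0.751).

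Cdk1, the mitotic kinase, had means of 2.84, 3.83, 3.57 and 2.06 in 8-cell embryos 4 to 7 (limma, adjusted p = 1.02e-04). Kdm3a, an H3K9 demethylase gene, had −0.66 in embryo 4 against 0.72, 0.82 and 0.50 (limma, adjusted p = 1.67e-04). DEK, a chromatin protein gene, had 0.87 in embryo 4 against 1.85, 1.86 and 1.15 (limma, adjusted p = 1.67e-04). Hdac1, a histone deacetylase gene, went the other way, with 3.50 in embryo 4 against 2.46, 2.36 and 2.32 (limma, adjusted p = 1.67e-04), and all 8 blastomeres of embryo 4 lay above the 16 others.

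Embryo 4 stood apart in most of these genes. Of the 46 genes, 32 had their lowest mean in embryo 4, 13 in embryo 7, 1 in embryo 6 and none in embryo 5, and the median over the 46 genes of embryo 4 minus the mean of the other embryos was −0.74. Without embryo 4 there were 9 genes, all among the 46, namely Atrx, Cdk1, Dppa3, Hells, Kdm1b, Kdm5c, Kdm6a, Pcgf1 and Setdb2. Without the 8 blastomeres whose control genes came up before cycle 15, 24 of the 46 remained. Of the 46 genes 32 had at least 1 pair of embryos whose blastomeres did not overlap, and of the 58 others 12. Of the control genes themselves Ssu72 and Ube2e1 differed between 8-cell embryos (adjusted p = 0.00267 and 3.19e-04, limma), with Ube2e1 lowest in embryo 4, at 0.82 against 1.45, 1.84 and 1.30, and Ssu72 highest there. With each blastomere set to its own median over genes 39 genes were called, of which 23 were among the 46, and without any scaling 3.

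The genes called between embryos at the 8-cell stage came from several groups. Of the histone genes and chaperones of the variant H3.3 and its partners 4 of 8 were called (H3f3b, DAXX, Atrx and DEK), of Polycomb repressive complex 1 and other Polycomb genes 6 of 8 (Bmi1, Ring1, Rnf2, Pcgf1, Scmh1 and Sfmbt1), and of the PRC2 genes 1 of 5 (Ezh1). Of the H3K4 methylation genes 4 of 5 were called (Mll2, Setd1b, Ash2l and Cxxc1), of the histone demethylases 6 of 18, and of the H3K9 methylation and HP1 genes 3 of 9. Of the H3K36 and H4K20 methylation genes 2 of 7 were called, and of the DNA methylation genes 2 of 5. These shares stand beside 44.2% over all genes tested, and none was tested against it. Without embryo 4, Pcgf1 alone of the called Polycomb genes and none of the called H3K4 methylation genes stayed called.

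Of the 9 inner cell mass genes detected everywhere 5 were called at the 8-cell stage, where 44.2% of all genes were, and 0 at the 4-cell stage, where 0.962% were. None of the 5 was among the 9 genes called without embryo 4. Trim28, a corepressor gene, had means of 2.00, 2.79, 2.57 and 3.13 (limma, adjusted p = 5.15e-04) and Klf4, a pluripotency factor, of −3.27, −1.18, −1.40 and −0.98 (limma, adjusted p = 0.0143). Ezh1, Scmh1 and the adhesion molecule Pecam1 were the others. Pou5f1, the pluripotency factor Oct4, had means between 3.24 and 3.68 in the 4 embryos (limma, adjusted p = 0.409), and was called with the deposited table (adjusted p = 0.0496), without Ube2e1 (0.00681) and with blastomere medians (0.0342). Tead4, the Hippo-dependent transcription factor and the single trophectoderm gene detected everywhere, had 0.19, 0.95, 1.20 and 0.24 (limma, adjusted p = 0.00404), and was not called without embryo 4 (adjusted p = 0.156, limma, from 8.76e-05 to 0.705 over all alternatives). Carm1 had means of −0.58, 0.13, 0.40 and −0.29 (limma, adjusted p = 0.0249), and 60.3% of its variance lay among sisters. The Carm1 call was lost in 7 of 13 alternatives, among them without embryo 4 (adjusted p = 0.419, limma) and with blastomere medians (adjusted p = 0.204, limma). The adjusted p of Carm1 ran from 1.33e-04 to 0.731 over all alternatives (limma). At the 4-cell stage its estimated variance between embryos was 0 (limma, adjusted p = 0.657).

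**Figure D4:**
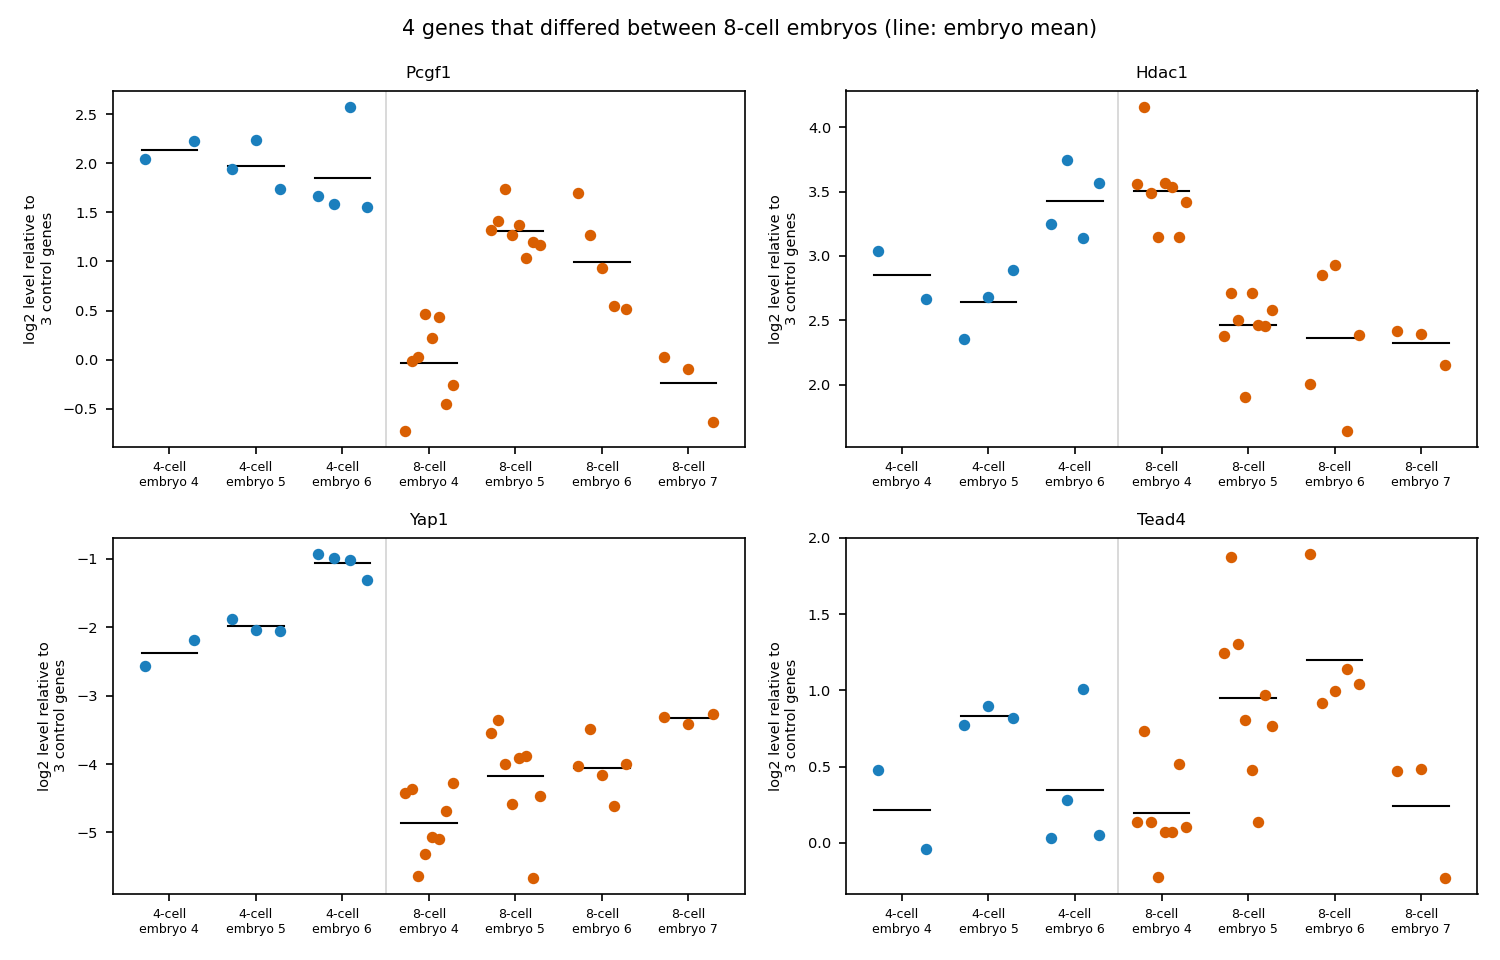
Log2 level relative to the 3 control genes (y axes) of Pcgf1, Hdac1, Yap1 and Tead4 in each 4-cell (blue) and 8-cell (orange) blastomere, by embryo (x axes), with black lines for embryo means. At the 8-cell stage all 8 blastomeres of embryo 4 lie above the 16 others in Hdac1, and Yap1 separates the 3 4-cell embryos without overlap.

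The spread among sisters was measured per gene as the SD pooled over the embryos of a stage. Over the 101 genes its median was 0.376 at the 4-cell stage (quartiles 0.293 and 0.517, 6 degrees of freedom) and 0.548 at the 8-cell stage (quartiles 0.421 and 0.654, 20 degrees of freedom). ESC RNA samples serve as a rough reference for the spread of the assay, though at 200 pg most genes came up earlier than in the blastomeres. These samples were RNA and not picked cells. The 4 samples of 25 to 200 pg were of different amounts, so their SD also holds any effect of the amount. For the 96 genes measured there, the median SD was 0.162 over 3 ESC RNA samples of 200 pg and 0.337 over 4 ESC RNA samples of 25 to 200 pg. The SD among 4-cell sisters was above the first in 90 and above the second in 53 of 96 genes, and that among 8-cell sisters in 94 and 77. The ESC samples of 200 pg had control genes at Ct 13.8 to 14.2, and the series of amounts at 14.2 to 17.6, while those of the blastomeres came up at 13.6 to 16.2, so the earliest blastomeres lie outside the second range. Genes of higher Ct spread more, with a Spearman correlation across 101 genes of 0.496 for 4-cell and 0.730 for 8-cell sisters (genes are no independent replicates and share the blastomeres).

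The most unequal genes among 4-cell sisters were the H3K27 demethylase Kdm6b (SD 1.78), the JmjC domain gene Jmjd5 (1.72), the de novo DNA methyltransferase Dnmt3b (1.71), the H3K9 methyltransferase Ehmt2 (1.15), Ring1 (1.15) and Klf4 (1.09). For several of them 1 blastomere made the spread. Kdm6b in 4-cell embryo 6 was at −2.54, −7.38, −1.93 and −2.88, a factor of 43.5 between highest and lowest, and in embryo 5 at −3.31, −3.10 and −3.33. Dnmt3b in embryo 6 was at −1.20, −2.12, 0.47 and −5.01. Jmjd5 was split in more embryos, at −6.23 and −3.35 in embryo 4, at −3.41, −5.63 and −3.88 in embryo 5 and at −6.21, −1.87, −3.04 and −2.74 in embryo 6. These genes had more spread than genes of like Ct, by a factor of 2.68 for Kdm6b, 4.22 for Dnmt3b, 2.56 for Jmjd5 and 2.34 for Klf4. Jmjd5 lies near the upper end of the Ct range, so its yardstick holds fewer genes of higher than of lower Ct.

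The most unequal genes among 8-cell sisters were Ring1 (SD 1.59), the H3K9 methyltransferase Suv39h1 (1.52), Klf4 (1.27), the transcription factor Tbx3 (1.20), the lysine methyltransferase Setd6 (1.19) and Kdm6b (1.13). Klf4, Ring1 and Kdm6b are in the first 6 at both stages. Klf4 in 8-cell embryo 5 was at −5.79 in 1 blastomere and from −1.47 to 0.04 in the other 7. Ring1 in embryo 4 ran from −11.01 to −2.96 with a median of −5.03, and from −3.76 to −2.02 in embryo 5. Suv39h1 had 1 blastomere at −10.24 in embryo 5 and 1 at −9.08 in embryo 4, with the other 14 of these embryos between −6.67 and −3.89. The values of −11.01 for Ring1 and −10.24 for Suv39h1 lie below the value of the paper's threshold of expression, which may not carry over to this scale. They enter these SDs as levels. Ring1 and Klf4 had 2.19 and 2.11 times the median SD of genes of like Ct. For Ring1, near the upper end of the Ct range, fewer of these genes had a higher than a lower Ct.

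The most even genes were Nf2, the Hippo regulator Merlin (SD 0.102), the HP1 gene Cbx3 (0.137), DEK (0.145) and the PRC2 subunit Eed (0.152) at the 4-cell stage, and Trim28 (0.275), DEK (0.286), the DNMT1-associated Dmap1 (0.290) and the H3K4 demethylase Kdm1a (0.305) at the 8-cell stage. Pou5f1 was even at both stages, with an SD of 0.261 and 0.308. Pou5f1, Trim28, Cbx3, DEK, Kdm1a and Eed came up early, at a mean Ct of 12.5 to 13.4, where genes spread less. Nf2 and Dmap1 came up later, at 14.3 and 15.8. The SDs of these even genes are not set against genes of like Ct here. Across embryos and stages 84 of the 101 genes had at least 1 blastomere more than 1 log2 step from the median of its sisters, and 25 had 1 more than 2 steps off.

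**Figure D5:**
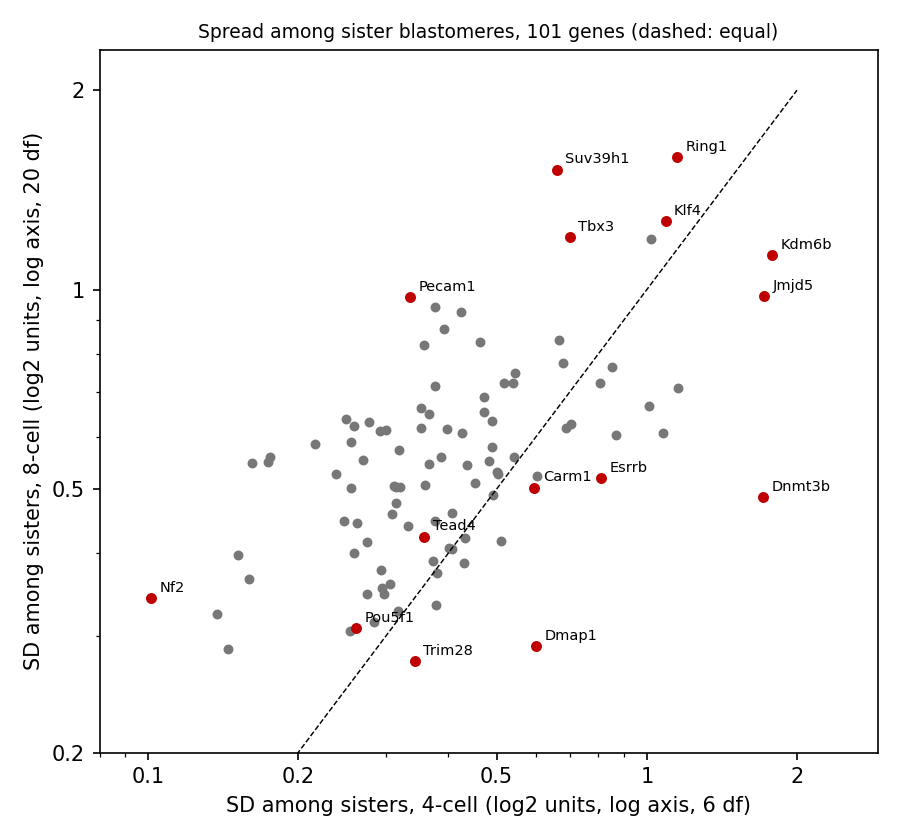
SD among sister blastomeres in log2 units at the 4-cell stage (x, log axis, pooled over 3 embryos) and at the 8-cell stage (y, log axis, pooled over 4 embryos), 1 point per gene for 101 genes, with 15 named genes in red and a dashed line where both are equal. Klf4 (1.09 and 1.27) and Ring1 (1.15 and 1.59) are high at both stages, Pou5f1 (0.261 and 0.308) is low at both, and Dnmt3b (1.71 and 0.486) and Nf2 (0.102 and 0.342) lie far from the line on opposite sides.

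No gene passed the test for a change in spread between the stages. In limma on the log2 SD of the 3 4-cell and 4 8-cell embryos, 0 of 104 genes had a higher and 0 a lower spread at the 8-cell stage (0% each, 6 genes at an unadjusted p under 0.05, smallest adjusted p 0.449). The genes with the smallest p and a higher value at the 8-cell stage were Nf2, with a log2 ratio of 1.89 ± 0.59 (standard error), the H3K9 methyltransferase Setdb1 with 1.75 ± 0.65, the H3K36 methyltransferase Whsc1 with 1.06 ± 0.45, H3f3b with 1.15 ± 0.51 and the H3K36 methyltransferase Setd2 with 1.43 ± 0.66. Those with a lower value were Dnmt3b with −1.95 ± 0.61, Dmap1 with −1.36 ± 0.48, Jmjd5 with −1.01 ± 0.47, Dnmt3a and Ehmt2. None of these passed the adjustment.

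The median over 101 genes of the log2 ratio was 0.28, and 69 of 101 genes had a value above 0. Per embryo, the median SD corrected for the number of sisters was 0.343, 0.490 and 0.500 at the 4-cell and 0.599, 0.555, 0.554 and 0.464 at the 8-cell stage, so the stages overlapped through 8-cell embryo 7. The exact permutation test over the 7 embryos gave a two-sided p of 0.114, and the smallest two-sided p that 35 arrangements allow is 0.0571. Without scaling to control genes the median ratio turned to −0.47.

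From the 8-cell to the 16-cell stage, with 20 single blastomeres of 2 embryos measured whose title and stage labels say 16-cell morula but whose source label also names the blastocyst, 1 of 94 genes had a higher spread (1.06%) and 0 a lower one (0%), with 14 at an unadjusted p under 0.05. It was Esrrb, an orphan nuclear receptor of pluripotent cells, with an SD, as the geometric mean over embryos corrected for the number of sisters, of 0.511 among 8-cell and 1.91 among 16-cell sisters (log2 ratio 1.90 ± 0.38, limma, adjusted p = 0.0301). This call was lost without 8-cell embryo 4, 5 or 7 or without 16-cell embryo 5 (0 genes each), and without 16-cell embryo 4 there were 4 genes, while the log2 ratio of Esrrb stayed between 1.73 and 2.11 with 1 embryo left out. Esrrb in the 4-cell embryos ranged from −2.29 to 0.23 in embryo 5, with −0.86 and −0.81 in embryo 4. On the same measure Carm1 had an SD of 0.530 among 8-cell and 0.547 among 16-cell sisters (log2 ratio 0.05 ± 0.40, limma, adjusted p = 0.941).

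Among the genes that followed Carm1 most closely from sister to sister, by the Pearson correlation of deviations from the embryo mean over 33 blastomeres, were the methyltransferase Smyd5 (0.67), the translation factor Eif1a (0.64), the H3K9 and H3K36 demethylase Kdm4a (0.60) and Pou5f1 (0.59). The lowest were the endoderm factor Gata6 (−0.20), Klf4 (−0.19) and the Polycomb gene Scmh1 (−0.18). These are descriptions, since the points share the embryo, the reaction tube and the control genes. Of 100 genes 90 were positive, with a median of 0.29, and Carm1 itself had a correlation of 0.35 with the Ct of the control genes. Smyd5 and Pou5f1 had correlations of 0.55 each with that Ct. The correlation with Pou5f1 was 0.10 over the 9 4-cell and 0.74 over the 24 8-cell blastomeres, and that with Smyd5 was 0.59 and 0.70. Over all 5050 pairs of genes the median was 0.19, over the 36 pairs of inner cell mass genes 0.20 and over the 9 pairs of these with Tead4 0.10.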

How the data were processed

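The authors deposited cycle thresholds from a BioMark system (a score of PCR cycles, lower for more transcript) for 189 samples, obtained after 18 cycles of target amplification; undetected values are 30. A normalized table on the log2 scale, with the quality call of each assay, was deposited too. The values show that table to be relative to Gapdh, Hspa8 and Lmnb1, all 3 of which failed quality control (largest difference 1.03e-08), whereas the methods name Hnrnpr, Ssu72 and Ube2e1. Levels were therefore computed here from the Ct with the named genes, and the deposited table served as an alternative. Since qPCR gives no read depth, precision was judged from ESC RNA samples and from the Ct of the control genes. Gene names are those of the files, of which 144 of 156 matched a RefSeq symbol and 11 a synonym.

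Of 5148 values 697 (13.5%) were undetected, and the highest measured Ct was 28.5. Tests of level and spread used the 104 genes detected in all 33 blastomeres, a filter that leaves out genes undetected in any sister, and the comparison with 16-cell embryos the 94 genes detected in all blastomeres of its own 2 stages. Embryo means were compared with the moderated F test of limma 3.58.1 (R 4.3.3). Spread was compared with limma on the log2 SD per embryo, corrected for the bias of few sisters and weighted by their number. Detection was compared with Fisher's exact test, and all p-values were adjusted by Benjamini-Hochberg over the genes of a test. Shares of variance are components of a one-way layout. Yardsticks of like Ct are the median SD of up to 10 genes on each side, with fewer on one side for genes near an end of the Ct range. Python 3.11.15, numpy 2.4.6, pandas 2.3.3 and scipy 1.17.1 served for the rest, and the fits were tested on simulated data. Nothing in the sources says that embryos came from separate females, so the p-values measure the spread between these embryos and sisters. Genes were named by rule: the markers, control, sex-linked, inner cell mass and trophectoderm lists, the extremes of sister SD, embryo effect, change in spread and detection, and the strongest correlations with Carm1. A gene that this rule selects is not reported here. ZP3, Brdt, Nanog, Fgf4, Phf2, Smyd4, Suv420h2, the genes without 8-cell embryo 4 and the members of called lists are named outside it, after their values were seen. The members and lists were chosen with earlier results of these data known.

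Alternatives were no scaling, the deposited table, each control gene left out, blastomere medians, all 156 genes with undetected values at 30, each embryo left out, other moderation, weights and measures of spread, a detection limit of Ct 28, and, added after seeing the data, leaving out blastomeres with control genes below Ct 15.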

Additional observations from a re-analysis of the deposited data

Results flagged for a closer look

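In embryos with 4 to 8 measured sisters, sister values of the named genes and of the control Ct were screened. The screen looked for a blastomere far from its nearest sister relative to the range of the set. With 1 set of the median SDs of the 8-cell embryos, 189 sets were screened. Of these, 16 sets (8.47%) had such a blastomere. The limit is one that about 1 in 20 sets of normal values would pass. Many named genes were chosen for their spread in these same values, and the sets share blastomeres. The 2 rates can therefore not be held against each other. In 4-cell embryo 6 these were Kdm1a at 2.95 (sisters 2.45 to 2.49), Pcgf1 at 2.58 (1.55 to 1.67) and Eif1a at −0.75 (0.40 to 0.60). In 8-cell embryo 4 blastomere 5 had Ring1 at −11.01 (sisters −6.52 to −2.96), blastomere 4 had Setd6 at −7.15 (−4.38 to −3.02) and Eif1a at 1.16 (2.00 to 2.46), blastomere 1 had Setd1b at −5.92 (−3.61 to −1.75) and blastomere 2 had Hdac1 at 4.16 (3.14 to 3.56). In 8-cell embryo 5 blastomere 5 had Suv39h1 at −10.24 (−6.49 to −3.89) and Eed at 1.65 (2.00 to 2.19), blastomere 3 had Klf4 at −5.79 (−1.47 to 0.04), blastomere 6 had Pecam1 at −3.39 (−2.68 to −2.26), blastomere 2 had Pou5f1 at 4.19 (3.15 to 3.49) and blastomere 4 had Hdac1 at 1.91 (2.38 to 2.71). In 8-cell embryo 6 blastomere 1 had Tead4 at 1.90 (0.92 to 1.14) and blastomere 3 had Jmjd5 at −4.44 (−3.03 to −2.72). Blastomeres 4 and 5 of 8-cell embryo 4 had control genes at Ct 13.7 and 13.8, the others named here for 8-cell embryos at 15.4 to 16.1. The part of this in the values was not tested.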

How the results depend on the processing

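The number of genes that differed between 8-cell embryos was 46, and from 9 to 44 when 1 embryo was left out. It was 3 without scaling, 28 without Ssu72 and 74 without Ube2e1 among the control genes, and 24 without blastomeres of control Ct below 15. At the 4-cell stage the 1 gene became 0 with any embryo left out, without Hnrnpr, without Ube2e1, with blastomere medians, with trend and robust moderation and without the early blastomeres, 2 with all genes and 7 with the deposited table. The share of variance within 4-cell embryos, 79.2%, was 47.5% with the deposited table and 100% without scaling, and 68.1% to 100% with 1 embryo left out. The share within 8-cell embryos, 72.6%, was 54.7% without Ube2e1 and 89.2% without scaling, and 70.6% to 89.3% with 1 embryo left out. Detection between 8-cell embryos went from 1 gene to 0 without the early blastomeres, and 0 to 1 with 1 embryo left out. The median log2 ratio of spread between the 8-cell and 4-cell stage, 0.28, reversed to −0.47 without scaling, was 0.11 without Hnrnpr and 0.47 without Ssu72, and 0.19 to 0.37 with 1 embryo left out. Between the 16-cell and 8-cell stage the 1 gene of higher spread became 0 with the deposited table or without scaling, 8 with absolute deviations and 13 with all genes, and 0 to 4 with 1 embryo left out. The genes of lower spread went from 0 to 1 with all genes, and the median log2 ratio from 0.30 to 0.57 without scaling. The cause was not tested for any of these. The counts of 0 genes for spread between the 8-cell and 4-cell stage held in all 18 alternatives.

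Embryo numbers 4, 5 and 6 occur at both stages but name different embryos. The deviations of log2 SD of embryos of equal number had correlations of −0.06, 0.01 and 0.07. These SDs rest on few sisters, so such correlations cannot decide whether embryos of equal number shared handling. With the embryo number as a replicate block the median log2 ratio of spread was 0.28 and 0 genes passed. The depth that limits these results is the number of embryos, and genes detected in part have no level in some of the sisters.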
